A study of Mus musculus with 8 samples.

Results

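The 4 miRNA precursors miR-32, miR-652, miR-139 and miR-22 were taken because their 3p and 5p arms changed by unequal amounts between injured and sham-operated mouse kidneys. Their 8 mature arms were found by name among the 1881 mouse miRNAs of the array, which held both arms of 723 precursors. The precursors were chosen by the change of the 3p signal relative to the 5p signal between the groups, so this change and the changes of the single arms are given as a description, with no test. The kidneys came from male C57BL/6 mice aged 9 weeks. For 4 samples, ischemia-reperfusion injury (IRI) was made by removing the right kidney and clamping, then releasing, the vessels of the left one. The clamp lasted 25 or 45 min and the kidney was taken 12 or 24 h later, and the labels do not say which sample had which time. For the 4 sham samples, mice were only opened and closed along the midline, with both kidneys left in place. IRI and sham thus differ in nephrectomy too. Whether the samples of a group are separate animals is not stated in the labels, so errors describe the spread between samples, which may be partly technical.

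Both arms of a miRNA precursor are cut from the same RNA hairpin by Drosha and Dicer, which leaves a short duplex. Usually the strand loaded into an Argonaute protein, the guide, persists and represses messenger RNAs through its seed (bases 2 to 8), while the other strand, the passenger, is largely lost. The guides usually found are miR-32-5p, miR-652-3p, miR-139-5p and miR-22-3p. Of these, miR-32-5p belongs to the seed family of miR-25 and miR-92a and is known as an androgen-induced miRNA in human prostate cancer, and miR-22-3p is abundant in heart and skeletal muscle. All 4 precursors lie inside a longer gene in the RefSeq table. Mir32 overlaps Tmem245 and Mir652 overlaps Tmem164, which both encode membrane proteins. Mir139 overlaps Pde2a, a phosphodiesterase that breaks down cyclic nucleotides, and Mir22 overlaps the long non-coding RNA Mir22hg. No other miRNA gene lay within 10000 bases of any of them, and the array does not measure the host transcripts.

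The hairpins are shown to place both arms on the molecule they share, with the 5p arm (first) and the 3p arm (second) in capitals, written 5′ to 3′ from RefSeq (build GRCm38.p6). The miR-32 hairpin lies at chr4:56895229-56895298 on the minus strand and the other hairpins on the plus strand, miR-652 at chrX:142739000-142739097, miR-139 at chr7:101475376-101475443 and miR-22 at chr11:75463716-75463810.
miR-32: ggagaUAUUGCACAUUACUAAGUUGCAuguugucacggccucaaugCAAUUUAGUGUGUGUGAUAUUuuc
miR-652: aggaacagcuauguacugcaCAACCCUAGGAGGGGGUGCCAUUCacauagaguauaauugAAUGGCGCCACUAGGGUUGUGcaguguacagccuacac
miR-139: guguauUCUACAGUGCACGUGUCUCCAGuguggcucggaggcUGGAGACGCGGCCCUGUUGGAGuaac
miR-22: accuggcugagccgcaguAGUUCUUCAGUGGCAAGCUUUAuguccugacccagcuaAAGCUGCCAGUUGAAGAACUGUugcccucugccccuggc

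The mature arms (named with the mouse prefix mmu) from the same table are shown with the seed in capitals, because the seed sets which messenger RNAs an arm can bind. The 8 arms had 8 distinct seeds.
mmu-miR-32-3p: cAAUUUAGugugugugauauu
mmu-miR-32-5p: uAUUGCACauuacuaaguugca
mmu-miR-652-3p: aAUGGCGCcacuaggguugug
mmu-miR-652-5p: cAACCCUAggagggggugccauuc
mmu-miR-139-3p: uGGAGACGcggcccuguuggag
mmu-miR-139-5p: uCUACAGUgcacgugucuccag
mmu-miR-22-3p: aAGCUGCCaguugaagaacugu
mmu-miR-22-5p: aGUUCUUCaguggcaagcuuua
Their length was 21 to 24 bases. Both miR-32 arms were poor in G and C (28.6% in 3p and 31.8% in 5p), whereas miR-139-3p was the richest of the 8 at 68.2%.

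Each sample was hybridised to 1 single-colour array, and all 8 arrays lay on 1 slide. IRI arrays filled slide row 2 and sham arrays row 1, so slide row and group cannot be told apart, whereas slide columns 1 to 4 each paired 1 IRI array with 1 sham array. Detected miRNAs numbered 393 to 447 on IRI arrays and 327 to 379 on sham arrays. All 5 kidney tubule miRNAs were detected on all 8 arrays. Of the markers of other tissues, miR-1a-3p (muscle) and miR-9-5p (nervous system) were also detected on all 8, while miR-133a-3p and miR-206-3p (muscle) and miR-124-3p (nervous system) were detected on none. Signals below are scaled, that is, divided by each array's own 75th percentile, taken over 317 miRNAs that every array detected, in linear units. A log2 change is the IRI mean minus the sham mean of log2 scaled signal, with its SE from limma, and a call is an adjusted p below 0.05 in the fit over 379 miRNAs, those detected on every array of IRI, of sham or of both. The arm difference is log2 3p signal minus log2 5p signal on the same array. Since the arms bind different probes, its size at baseline is no ratio of molecules, and the text reads its change between groups. A scaling factor cancels in the arm difference, except where a signal lies at the floor of 17.3 set under dim values.

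miR-32 showed the largest arm difference change of the 4 precursors, with arms that changed in opposite directions. The passenger miR-32-3p was higher and the guide miR-32-5p lower in IRI kidneys. mmu-miR-32-3p had scaled signals of 55.9, 33.3, 28.9 and 44.2 in IRI replicates 1, 2, 3 and 18, against 22.9, 9.78, 26.0 and 17.6 in sham replicates 1, 2, 3 and 6. Every IRI value lay above every sham value, but IRI replicate 3 exceeded sham replicate 3 by little. The scanner software detected miR-32-3p in every IRI replicate but in sham only in replicates 1 and 3 (2 of 4), so its log2 change of 0.93 ± 0.23 (SE, n = 4 per group; 1.90-fold) rests partly on values that were not detected, of which sham replicate 2 entered at the floor. mmu-miR-32-5p had 47.9, 45.2, 45.2 and 40.7 in IRI replicates 1, 2, 3 and 18, against 73.1, 66.3, 63.5 and 56.5 in sham replicates 1, 2, 3 and 6. Here the groups did not overlap either, and the log2 change was -0.53 ± 0.09 (SE, n = 4 per group), or 1.45-fold lower in IRI. Without scaling between arrays the miR-32-5p change shrank to -0.23 and was not called, whereas the miR-32-3p change was 1.11. The unscaled miR-32-5p signals of the groups overlapped (highest IRI 56.81, lowest sham 44.88). In whole kidney, fewer cells of a type and less RNA per cell cannot be told apart.

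The miR-32 arm difference was 0.22, -0.44, -0.64 and 0.12 in IRI replicates 1, 2, 3 and 18, against -1.68, -1.94, -1.29 and -1.68 in sham replicates 1, 2, 3 and 6. The 3p arm thus gained 1.46 ± 0.23 (SE, n = 4 per group) on the 5p arm, a 2.75-fold change of the ratio. Within slide columns 1, 2 and 4 the gain was 1.90, 1.50 and 1.80, and in column 3, which holds replicate 3 of either group, it was 0.64. The size depended on how dim signal was handled. Background correction with normexp and an offset of 50, which adds the same amount to both groups and so shrinks dim changes, gave an arm difference change of 0.33. The scanner software's own total signal, which leaves out probes it does not detect, gave 2.25.

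**Figure D1:**
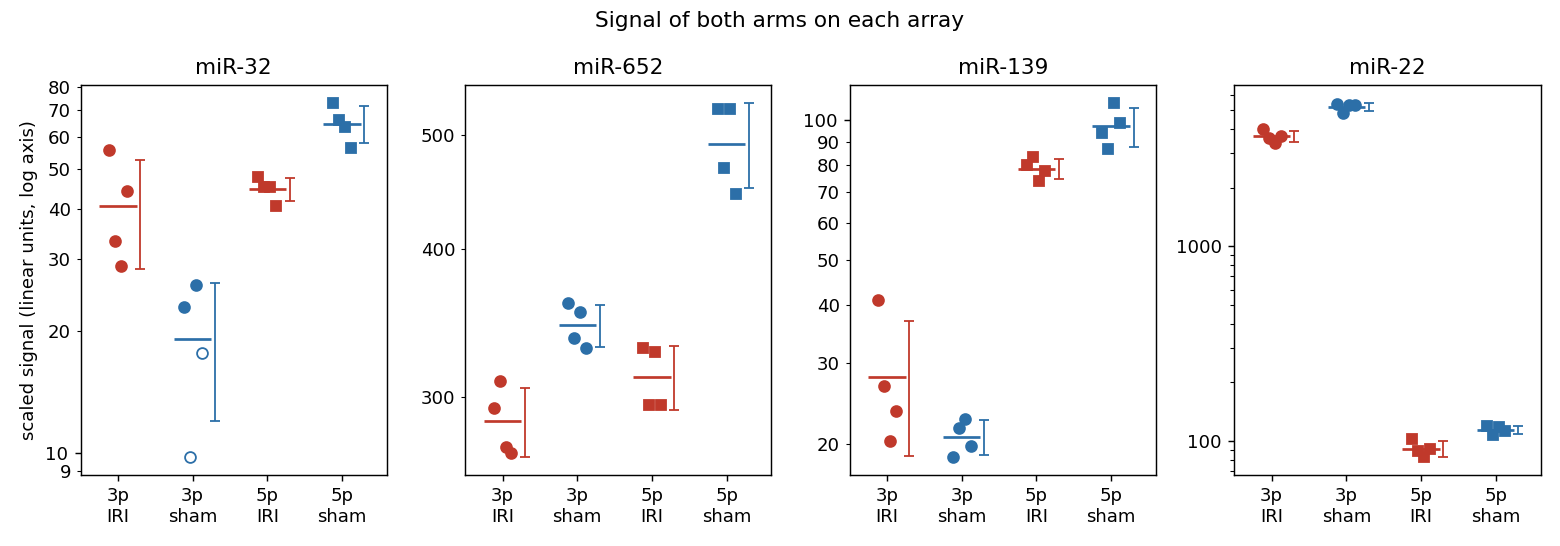
Scaled signal (vertical, log axis) of the 3p arm (circles) and the 5p arm (squares) of miR-32, miR-652, miR-139 and miR-22 on each of 4 IRI arrays (red) and 4 sham arrays (blue). Horizontal lines are group means, error bars are SD, and open symbols mark arrays where the arm was not detected. The IRI and sham points do not overlap for any arm except miR-139-3p, and the miR-32 arms move in opposite directions.

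All 19 probes of the 8 arms pair without mismatch with the 3′ end of their arm, over 13 to 21 bases. The 2 probes of miR-32-3p pair with 20 and 21 of its 21 bases, and the longer one is shown, 5′ to 3′ as DNA, because its repeat is shared with probes of other miRNAs.
miR-32-3p probe: aatatcacacacactaaattg
Both probes gave higher signal in IRI: 20.1 ± 5.96 in IRI against 8.73 ± 4.10 in sham for the shorter, and 20.5 ± 6.33 in IRI against 10.3 ± 3.06 in sham for the longer (SD, n = 4 each). Of the spots of the shorter probe, 45 of 60 were well above background in IRI and 0 of 60 in sham. For the longer probe the numbers were 49 of 60 in IRI and 2 of 60 in sham. For miR-32-5p only 2 of 4 probes were well above background on more than a few spots, and their IRI to sham ratios were 0.657 and 0.699.

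The run CACACACAC in the miR-32-3p probes was looked for in the probes of the whole array, as written and on the probe strand only, after the values had been seen. It occurs in 7 of 4415 probes and in probes of 4 of 1881 miRNAs (0.213%), namely miR-32-3p, miR-3082-5p, miR-574-5p and miR-466i-5p. None of the other 7 arms described here holds it. The other 3 miRNAs were all called higher in IRI, by 1.71 (miR-3082-5p), 1.36 (miR-574-5p) and 1.27 (miR-466i-5p) on the log2 scale, and they stayed called higher under each of the 4 other scalings tried. Called higher were 12.1% of all miRNAs tested.
miR-3082-5p: gacagaGUGUGUGUGucugugu
miR-574-5p: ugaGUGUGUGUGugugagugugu
The capitals mark the run that pairs with the repeat of the miR-32-3p probe, and miR-466i-5p is given by name only. By sequence, the miRNAs themselves were compared with the miR-32-3p probes too, among 397 detected miRNAs with a RefSeq sequence. Besides miR-32-3p, 4 could pair with a probe over 9 bases or more, miR-3082-5p, miR-574-5p, miR-1187 and miR-672-5p. Of these miR-1187 was called higher as well (log2 change 1.35), whereas miR-672-5p, detected on 4 IRI arrays and 1 sham array, was not called (0.51, adjusted p from limma 0.0667). The summed scaled signal of miR-3082-5p, miR-574-5p and miR-466i-5p was 3134, 2482, 2128 and 2717 in IRI replicates 1, 2, 3 and 18, against 906.8, 816.6, 1209 and 1208 in sham replicates 1, 2, 3 and 6. Within the IRI group its order (replicates 1, 18, 2, 3) was also the order of the miR-32-3p signal, whereas in sham the orders differed at replicates 1 and 6. The part of these miRNAs in the miR-32-3p signal was not tested.

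**Figure D2:**
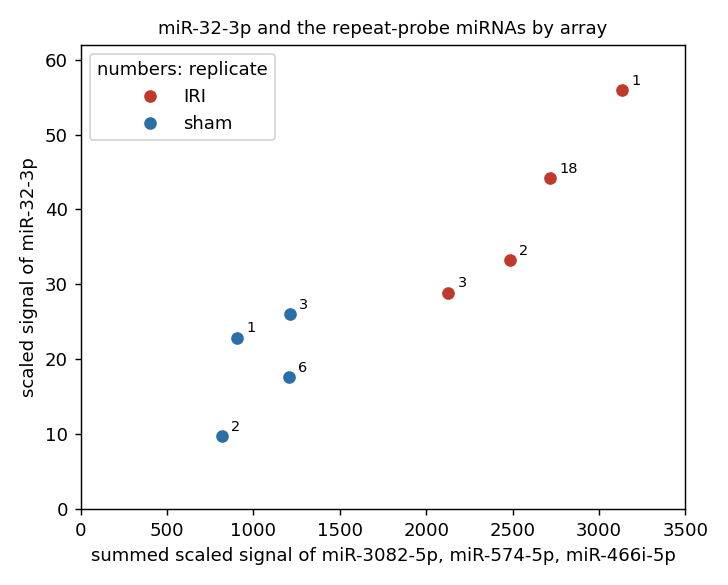
Scaled signal of miR-32-3p (vertical) against the summed scaled signal of miR-3082-5p, miR-574-5p and miR-466i-5p (horizontal), whose probes share the run CACACACAC with those of miR-32-3p. Each point is 1 array, numbered by replicate, in IRI (red) and sham (blue); IRI arrays lie at 2128 to 3134 and sham arrays at 816.6 to 1209 on the horizontal axis.

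Both miR-652 arms were lower in IRI, the passenger miR-652-5p by more than the guide miR-652-3p. These names follow the usual guide and not the signals here. On average miR-652-5p was the brighter arm, at 312 against 286 in IRI and 491.4 against 345 in sham. mmu-miR-652-5p had scaled signals of 330.2, 295.3, 327.3 and 295.3 in IRI replicates 1, 2, 3 and 18, against 525.6, 468.3, 526.0 and 445.4 in sham replicates 1, 2, 3 and 6. The groups were well apart, with a log2 change of -0.65 ± 0.08 (SE, n = 4 per group), or 1.57-fold lower in IRI. Without scaling this change was -0.35 and with the spike-ins -0.33, not called in either, and the unscaled signals of the groups overlapped (highest IRI 391.9, lowest sham 353.8). mmu-miR-652-3p had 293.6, 309.4, 271.9 and 269.1 in IRI replicates 1, 2, 3 and 18, against 359.9, 336.4, 353.7 and 329.8 in sham replicates 1, 2, 3 and 6. Its log2 change was -0.27 ± 0.07 (SE, n = 4 per group), but 0.03 without scaling and 0.05 when the labelling spike-ins set the scale. The arm difference was -0.17, 0.07, -0.27 and -0.13 in IRI replicates 1, 2, 3 and 18, against -0.55, -0.48, -0.57 and -0.43 in sham replicates 1, 2, 3 and 6. IRI values were all above sham values, and the 3p arm gained 0.38 ± 0.08 (SE, n = 4 per group) on the 5p arm.

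These arms are bright enough that every spot of their 4 probes was well above background on all 8 arrays. Probes of 1 arm changed alike: the IRI to sham ratio was 0.633 and 0.637 for the miR-652-5p probes, and 0.867 and 0.815 for the miR-652-3p probes. Within slide columns the gain of 3p on 5p was 0.38, 0.54, 0.31 and 0.30 for columns 1 to 4. Across 23 other settings and arrays left out, it ranged from 0.29 to 0.43.

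miR-139 had a dim passenger whose groups overlapped. The guide mmu-miR-139-5p had scaled signals of 79.9, 83.2, 74.0 and 77.7 in IRI replicates 1, 2, 3 and 18, against 93.9, 86.8, 109.2 and 98.7 in sham replicates 1, 2, 3 and 6. IRI lay below sham throughout, with a log2 change of -0.30 ± 0.08 (SE, n = 4 per group), but the change was 0.0035 without scaling and 0.02 with the spike-ins. mmu-miR-139-3p had 40.9, 26.8, 20.4 and 23.6 in IRI replicates 1, 2, 3 and 18, against 18.8, 21.7, 22.7 and 19.8 in sham replicates 1, 2, 3 and 6. IRI replicate 1 stood far above the sham range, replicates 2 and 18 just above it and replicate 3 within it. The log2 change was 0.38 ± 0.20 (SE, n = 4 per group), not called, and 0.18 without IRI replicate 1; with normexp it was -0.12.

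The miR-139 arm difference was -0.97, -1.64, -1.86 and -1.72 in IRI replicates 1, 2, 3 and 18, against -2.32, -1.998, -2.27 and -2.32 in sham replicates 1, 2, 3 and 6. The groups did not overlap, and 3p gained 0.68 ± 0.19 (SE, n = 4 per group) on 5p. The gain was 0.49 without IRI replicate 1 and 0.10 with normexp. By slide column it was 1.35, 0.36, 0.40 and 0.60 for columns 1 to 4, so column 1, which holds IRI replicate 1, gave the highest value. The 3p signal came from 1 of its 2 probes, shown because they differ by a single base at the 3′ end.
miR-139-3p probe of 13 bases: ctccaacagggcc
miR-139-3p probe of 14 bases: ctccaacagggccg
The shorter probe had 0 of 60 spots well above background in either group. For the longer probe 59 of 60 spots in IRI and 37 of 60 in sham were well above background, and the scaled signal averaged 26.8 ± 7.30 in IRI against 21.6 ± 2.30 in sham (SD, n = 4 each).

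Both miR-22 arms were lower in IRI, the guide miR-22-3p by more than the passenger miR-22-5p, and the change of their arm difference was the smallest of the 4. The guide mmu-miR-22-3p had scaled signals of 3978, 3616, 3373 and 3684 in IRI replicates 1, 2, 3 and 18, against 5371, 4821, 5324 and 5308 in sham replicates 1, 2, 3 and 6. Its groups were far apart, with a log2 change of -0.51 ± 0.07 (SE, n = 4 per group), or 1.42-fold lower in IRI. The passenger mmu-miR-22-5p had 102.7, 89.3, 83.0 and 91.4 in IRI replicates 1, 2, 3 and 18, against 119.6, 107.4, 117.5 and 113.2 in sham replicates 1, 2, 3 and 6. Its log2 change was -0.32 ± 0.08 (SE, n = 4 per group), or 1.25-fold lower in IRI. Without scaling the changes were -0.20 for miR-22-3p and -0.02 for miR-22-5p, and neither was called. The unscaled signals of the groups overlapped for miR-22-3p (highest IRI 4721, lowest sham 4216). They overlapped for miR-22-5p too (highest IRI 121.9, lowest sham 89.9).

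The miR-22 arm difference was 5.28, 5.34, 5.34 and 5.33 in IRI replicates 1, 2, 3 and 18, against 5.49, 5.49, 5.50 and 5.55 in sham replicates 1, 2, 3 and 6. The 3p change relative to 5p was -0.18 ± 0.04 (SE, n = 4 per group), and the SD within groups was 0.03 in IRI and 0.03 in sham. This spread was the smallest of the 4 precursors in either group. The change was -0.21, -0.15, -0.16 and -0.22 in slide columns 1 to 4. The probe ratios of IRI to sham were 0.714 and 0.697 for miR-22-3p and 0.823 and 0.786 for miR-22-5p. Quantile normalization turned the arm difference change to 0.31, while the other scalings tried left it at -0.18.

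**Figure D3:**
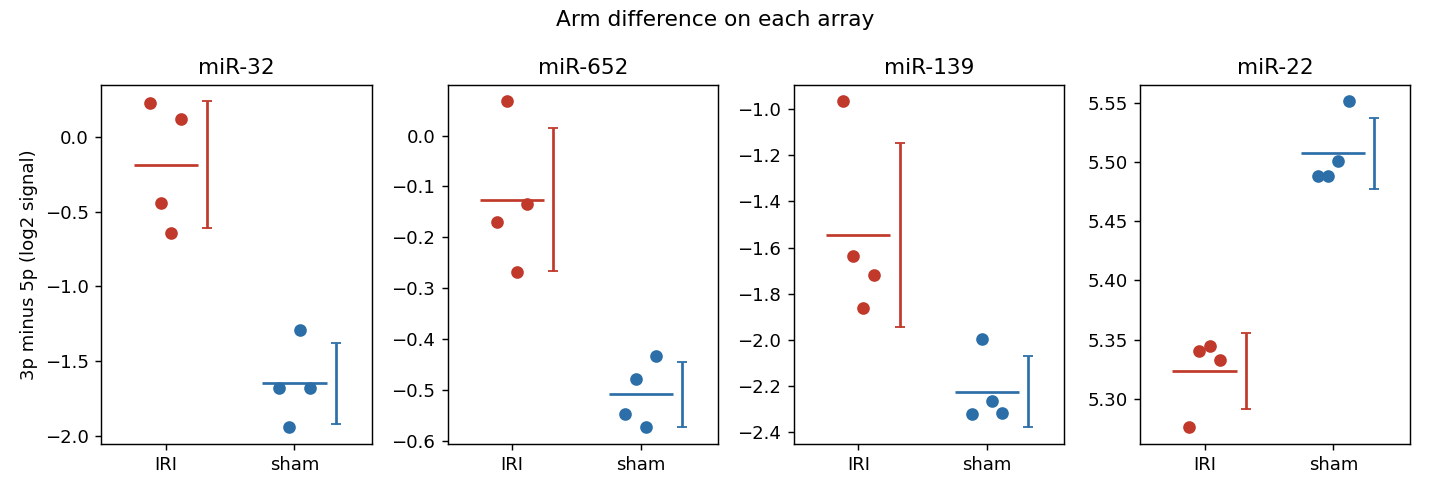
Arm difference (3p minus 5p log2 signal) of miR-32, miR-652, miR-139 and miR-22 on each IRI array (red, left) and sham array (blue, right), with group mean (line) and SD (bar); the vertical scales differ between panels. IRI and sham points do not overlap in any panel, and IRI lies above sham for miR-32, miR-652 and miR-139 and below it for miR-22.

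The direction relative to the usual guide differed between precursors. In miR-32, miR-139 and miR-22 the passenger gained on the guide in IRI, and in miR-652 the guide gained on the passenger. Of the 8 arms, 7 were called in the fit over all miRNAs, where 48.8% of those tested were called, and 7 had groups that did not overlap, which held for 46.4% of those tested. Of the 7 calls 1 was higher and 6 were lower, against 12.1% of all tested miRNAs called higher and 36.7% called lower. The median log2 change was -0.31 over the 8 arms and -0.11 over all tested miRNAs. The contrast that chose the arms gave these counts, so nothing is read from them. Without scaling 1 arm was called, miR-32-3p, and the median over all tested miRNAs was 0.17, so that the lower levels above are levels relative to the rest of each array.

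Arms were compared for the 38 precursors whose arms were each detected on every array of IRI, of sham or of both. The arms of 30 of them changed in the same direction and those of 7 in opposite directions, miR-32 and miR-139 among the 7, while the remaining 1 (miR-338) had a 5p change of 0. The median size of the arm difference change was 0.15 on the log2 scale (quartiles 0.05 and 0.37). By size, miR-32 ranked 2 (after miR-21a), miR-139 ranked 8, miR-652 ranked 10 and miR-22 ranked 17 of 38, so precursors with larger changes were not among the 4. In sham, miR-21a-3p was detected on 0 arrays and miR-32-3p on 2, so the sizes for miR-21a and miR-32 rest partly on undetected values. The fit over the 38 called 10 arm difference changes (26.3%), 4 with 3p gaining (10.5%) and 6 with 3p losing (15.8%), and 9 of 38 (23.7%) had groups that did not overlap. All 4 precursors described here are among the 10 and among the 9, but that contrast chose them. Under other settings, arrays left out included, the fit called the miR-32 change in 20 of 22 and the miR-652 change in 21 of 23. It called the miR-139 change in 12 of 23 and the miR-22 change in 20 of 23. Of these 20 miR-22 calls, 19 had the sign given above and 1, quantile normalization, the opposite sign. At an adjusted p below 0.01 in the text's setting, 1 of the 4 was called. These settings reuse the same arrays and the contrast that chose the 4, so the counts describe the processing and are no test. For miR-139 the settings that lost the call included a slide column block and leaving out sham replicate 1, sham replicate 3, sham replicate 6, IRI replicate 2 or IRI replicate 18.

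**Figure D4:**
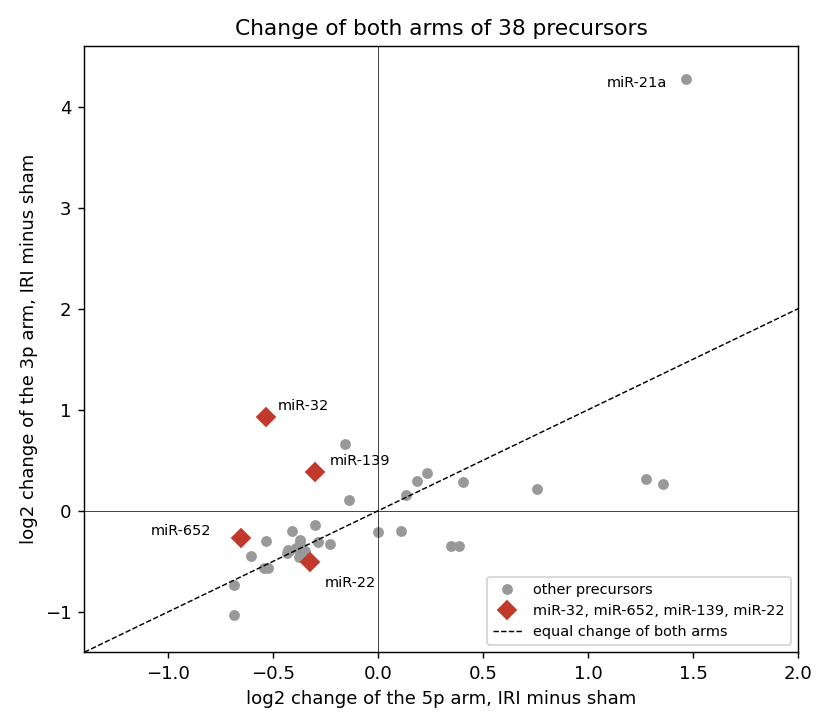
Log2 change of the 3p arm (vertical) against that of the 5p arm (horizontal), IRI minus sham, for 38 precursors with both arms tested; the dashed line marks equal change. miR-32, miR-652, miR-139 and miR-22 are red diamonds; miR-32 and miR-139 lie in the quadrant where 3p is above 0 and 5p below 0, miR-22 just below the line and miR-652 above it.

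Among precursors with both arms detected on all 8 arrays (26), the 5 largest arm difference changes outside the 4 were those of miR-466i (-0.96), miR-125a (0.82), miR-1897 (-0.74), miR-3620 (-0.69) and miR-192 (-0.34). The fit called them except that of miR-125a (adjusted p = 0.0522, limma), which quantile normalization called, and no scaling turned the sign of any of the 5. miR-32 is not among the 26 because its 3p arm was not detected on every array. miR-192-5p, an abundant kidney epithelial miRNA, is also the miRNA whose pattern over the 8 arrays was most like that of miR-652-5p.

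Likeness was measured as the root mean square difference of centred log2 signal over the 8 arrays, against the 316 other miRNAs detected on all of them. For miR-652-5p the nearest were miR-192-5p (0.06), miR-194-5p (0.07) and miR-185-5p (0.08), whereas for miR-652-3p they were miR-24-3p, let-7e-5p and miR-23a-3p (0.04 each). The own other arm lay at 0.21, which was rank 117 for miR-652-5p and rank 159 for miR-652-3p. miR-22-5p was nearest to miR-30d-5p, miR-10b-5p and miR-30b-5p (0.03 each) and miR-22-3p to miR-103-3p, miR-200a-3p (0.04 each) and miR-378a-5p (0.05). The miR-22 arms lay at 0.10 from each other, rank 55 for 5p and rank 49 for 3p. miR-139-5p was nearest to miR-151-5p (0.06), miR-28a-5p and miR-126a-3p (0.07 each), with its own 3p arm at 0.43 and rank 264. miR-139-3p had no close neighbour, the nearest being miR-1897-5p and miR-296-5p (0.18 each) and miR-7047-5p (0.20). miR-32-5p was nearest to miR-148b-3p (0.07), miR-374c-5p (0.08) and miR-26b-5p (0.09). For the 6 arms of miR-652, miR-139 and miR-22 the own other arm was not among the 3 nearest. For miR-32 it was not compared because miR-32-3p was not detected on all arrays. The measure includes the change between groups, and the precursors were chosen because their arms differed in it. Nothing is therefore read from the distance between the arms of a precursor.

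Of the 8 arms, miR-32-5p alone shared its seed with other mouse miRNAs in the RefSeq table, 5 in number, of which 2 were detected.
miR-25-3p: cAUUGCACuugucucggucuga
miR-92a-3p: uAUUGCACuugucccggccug
The capitals mark the shared seed. miR-25-3p averaged 223.9 in IRI and 256.0 in sham, and its log2 change was -0.20 ± 0.08 (SE, adjusted p from limma 0.0778). miR-92a-3p averaged 326.1 in IRI and 293.6 in sham, and its log2 change was 0.15 ± 0.08 (SE, adjusted p from limma 0.147). Neither passed the test. The miR-25-3p value was 0.11 without scaling, and both a percentile taken over every miRNA (-0.30) and quantile normalization (-0.30) made it a call, while miR-92a-3p was called higher with the spike-ins (0.47). miR-92b-3p, miR-363-3p and miR-367-3p were detected on no array. Whether miR-32-5p, at -0.53 (-0.23 without scaling), differs from these family members was not tested.

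Markers of some other cells moved with the groups. The summed scaled signal of the 3 red blood cell miRNAs was 2940 to 4087 in IRI and 43.1 to 901.9 in sham, with 3 of 3 called higher. On sham arrays, however, miR-144-3p was detected on 2 of 4 and miR-486a-5p on 0, so these 2 were tested only through their detection in IRI. The 5 leukocyte miRNAs summed to 764.2 to 1115 in IRI and 569.3 to 731.2 in sham, with 1 of 5 (miR-223-3p) called higher. Not called were miR-142a-3p (log2 change 0.29), miR-142a-5p (0.19), miR-150-5p (-0.57) and miR-342-3p (-0.14). The 5 kidney tubule miRNAs summed to 12610 to 14270 in IRI and 17410 to 20070 in sham, with 5 of 5 called lower, and the 2 endothelial miRNAs, both called lower, to 3836 to 4321 in IRI and 4623 to 5333 in sham. Of 3 muscle miRNAs, miR-1a-3p was called lower and the other 2 were detected on no array, and miR-122-5p, the liver marker, passed detection on 1 array of IRI and 0 of sham. The nervous system marker miR-9-5p was not called (log2 change 0.13). These calls are from the text's scaling. Without scaling 1 of the 379 miRNAs tested was called lower, and 2 with the spike-ins. Most of the lower calls of markers are therefore levels relative to the rest of each array. The part of the marked cells in the arm differences was not tested.

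**Figure D5:**
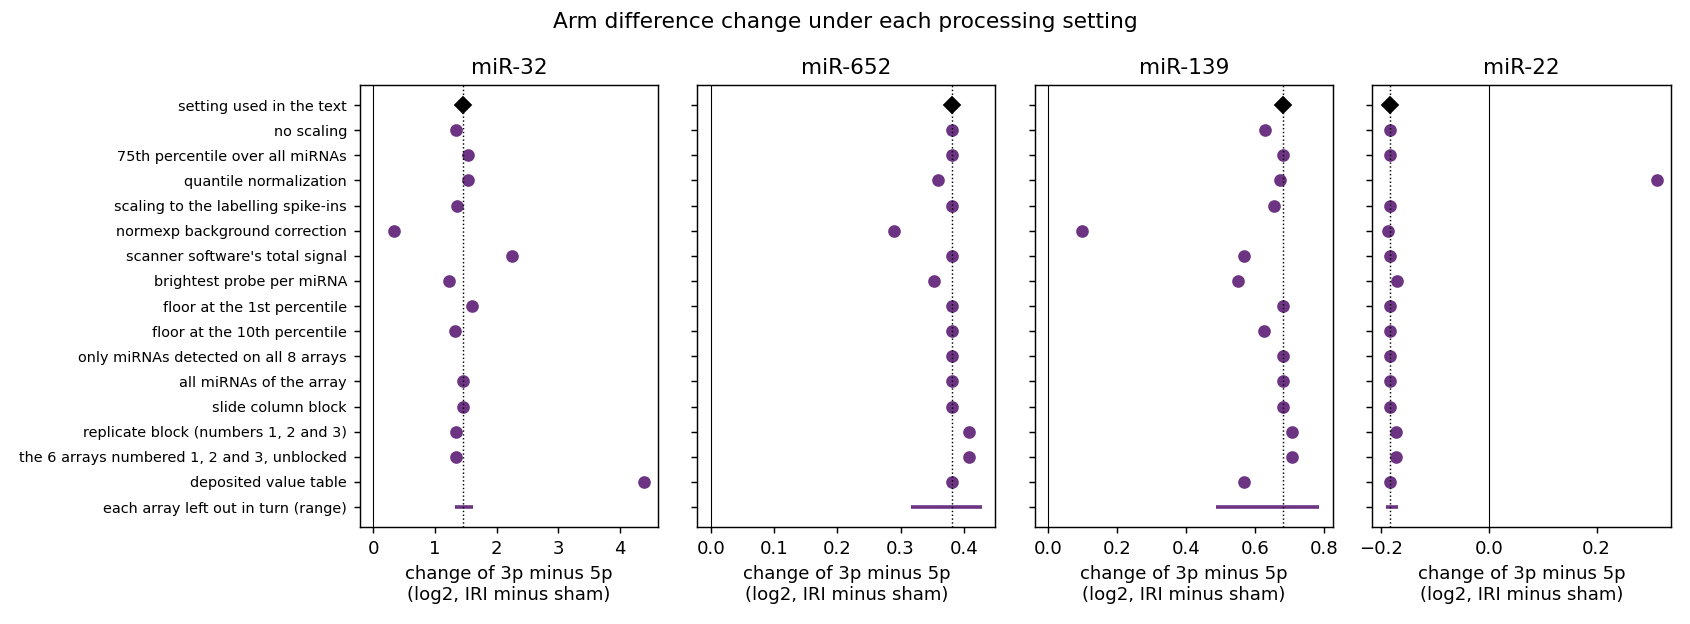
Change of the arm difference (log2, IRI minus sham) of miR-32, miR-652, miR-139 and miR-22 under the setting used in the text (black diamond, dotted line) and under each other setting (points); the bottom bar is the range when each array was left out in turn. The horizontal scales differ. miR-652 stays between 0.29 and 0.43, miR-32 spans 0.33 to 4.40, miR-139 falls to 0.10 with normexp and miR-22 turns to 0.31 with quantile normalization.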

How the data were processed

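Total RNA including small RNA from 30 mg of kidney was labelled with Cy3 (100 ng per array), per the labels' protocols. Per the file headers, the scanner files come from Agilent Feature Extraction 12.0.3.1, and their deposited intensity values are linear, background-subtracted and not normalized between arrays. A value table, also deposited by the authors, gives each miRNA a linear ratio. It matched the scanner software's total signal per miRNA up to a factor per array and a factor per entry (correlation 1 on each array). Its direction is therefore settled (more signal, higher ratio), but not how arrays were scaled or entries centred. Medians of its columns were 0.658, 0.646, 1.16 and 0.749 for IRI replicates 1, 2, 3 and 18, and 0.859, 1.23, 1.29 and 1.30 for sham replicates 1, 2, 3 and 6. It served as an alternative only.

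Groups and replicate numbers came from the sample titles. Spots marked as outliers (1422 to 1560 per array) and control spots were left out, processed signals were averaged per probe and summed per miRNA, and detection was the software's gene flag. Scaled values under 17.3, the 5th percentile over detected miRNAs, were set to that floor before taking log2. limma 3.58.1 in R 4.3.3 (two-sided, Benjamini-Hochberg, threshold 0.05, no covariate) was fitted to 379 miRNAs and to 38 precursors whose arms share a name up to 3p or 5p. The fit was tested on simulated data. The members and lists were chosen with earlier results of these data known. The miRNAs named besides the 8 arms follow a rule: shared seeds, the 3 nearest patterns, the 5 largest other arm differences, and marker lists; those sharing the probe repeat were chosen after their values were seen. RefSeq sequences (GRCm38.p6) matched 8 of 8 arms and 1608 of 1881 array miRNAs. Other scalings, background handling, probe summaries, floors, filters, variance models, thresholds and blocks were tried, as was leaving out each array.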

Additional observations from a re-analysis of the deposited data

Results flagged for a closer look

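In 24 groups of 4 arrays (8 arms and 4 arm differences, IRI and sham), 2 values lay far from the other 3 of their group by Dixon's test, which chance alone gives in about 1 group in 20. The log2 signal of miR-22-3p was 12.24 in sham replicate 2, against 12.37 to 12.39 in the other sham arrays. Without that array the miR-22-3p level change was -0.54, against -0.51 with it. The arm difference of miR-139 was -1.998 in sham replicate 2, against -2.32 to -2.27 in the other sham arrays. Without it the miR-139 arm difference change was 0.76, against 0.68 with it.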

How the results depend on the processing

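The number of arrays limits precision, and miR-32-3p and miR-139-3p lie near background. Without scaling 54 miRNAs were called, 77 with the spike-ins and 185 in the text's setting (53 higher and 1 lower, 75 and 2, and 46 and 139). Without scaling and with the spike-ins, in that order, the level change was -0.23 and -0.21 for miR-32-5p, -0.35 and -0.33 for miR-652-5p, -0.20 and -0.19 for miR-22-3p, and -0.021 and -0.004 for miR-22-5p, while miR-652-3p (0.0315 and 0.0485) and miR-139-5p (0.0035 and 0.0204) turned sign. With the percentile over all miRNAs it was -0.38 for miR-652-3p, -0.76 for miR-652-5p, -0.62 for miR-22-3p and -0.43 for miR-22-5p. Quantile normalization gave -0.14 for miR-22-3p and -0.45 for miR-22-5p, turned the miR-22 arm difference change to 0.31, and called 21 arm difference changes against 10. Normexp called 5 and gave 0.0356 for miR-32-3p, -0.30 for miR-32-5p, -0.50 for miR-652-5p and -0.12 for miR-139-3p, with arm difference changes of 0.33 (miR-32) and 0.10 (miR-139); its offset shrinks dim changes by construction. The software's total signal gave 1.56 for miR-32-3p, -0.69 for miR-32-5p and 2.25 for their arm difference, and the deposited table gave 3.61, -0.78 and 4.40 and called 6 arm difference changes. The brightest probe alone gave -0.19 for miR-139-5p. With all miRNAs of the array, where most variances are 0 and limma warned of it, 111 miRNAs and 59 arm differences were called. At an adjusted p below 0.01 the counts were 120 and 3. Other causes were not tested.

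The slide column block called 6 arm differences. The replicate numbers 1, 2 and 3 recur in both groups, and same-numbered arrays also shared slide columns 1, 2 and 3. Their deviations from the group means correlated at -0.09, -0.14 and 0.28 for numbers 1, 2 and 3. Only number 3 passed the limit of 0.1 set for a pair, and 2 of 6 arrays were most like their own number. No pairing was used in the text's setting. With the replicate block 67 miRNAs and 1 arm difference were called, and 3 arm differences on the same 6 arrays with no block. The arm difference changes under the replicate block were 1.35 (miR-32), 0.41 (miR-652), 0.71 (miR-139) and -0.17 (miR-22).

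With each array left out in turn, 150 to 190 miRNAs and 7 to 10 arm differences were called, and arm difference changes were 1.32 to 1.61 (miR-32), 0.32 to 0.43 (miR-652), 0.49 to 0.79 (miR-139) and -0.19 to -0.17 (miR-22). Level changes were 0.76 to 1.08 (miR-32-3p), -0.60 to -0.47 (miR-32-5p), -0.31 to -0.24 (miR-652-3p), -0.70 to -0.62 (miR-652-5p), 0.18 to 0.51 (miR-139-3p), -0.35 to -0.24 (miR-139-5p), -0.55 to -0.47 (miR-22-3p) and -0.38 to -0.28 (miR-22-5p). Of 324 values under other settings, 279 moved by less than the spread between replicates (counts, by less than 1.5 times) and 40 by more. Another 5, called in the text's setting, turned sign. Of these 5, only the miR-22 arm difference with quantile normalization was also called after turning. The miR-139-3p value with normexp, not called and counted among the 40, turned sign too, making 6. The restriction to miRNAs detected on all 8 arrays gave no value for miR-32-3p or the miR-32 arm difference.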
